A study of Mus musculus with 4 samples.

Results

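Chemokine ligands were described gene by gene in single cells of mouse liver during hepatocellular carcinoma. They were chosen by name: every row of the count matrix whose symbol begins with Ccl, Cxcl, Cx3cl or Xcl followed by a digit, without Ccl5. This gave 43 rows of 31053, under 38 symbols, since Ccl19, Ccl21 and Ccl27 have several rows. Of these rows, 25 had at least 100 UMIs (counted RNA molecules) in the analysed cells, 8 had 1 to 99 and 10 had 0. All members together held 124756 UMIs, which is 0.103% of all UMIs, and Cxcl2 and Ccl4 alone held 28.5% and 28.2% of them.

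The 4 samples came from a gene-induced model of liver cancer: tumor tissue at week 4 (HCC-ES), tumor tissue at week 8 (HCC-MS), tumor tissue at a last time (HCC-LS) given as week 10 by the sample's label and week 12 by the series text, and normal liver at week 0 (HCC-NL). The induced gene, the strain, the sex and the number of animals are not given in the sources used here. All were dissociated liver, lysed to remove red cells, and profiled with 10x Genomics 3′ chemistry. The joined matrix holds 4 libraries that no source used here pairs with a sample, so it was taken as 1 pooled sample, no week was compared with another, no test was made, and each library is called by its number.

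Libraries 1 to 4 held 15593960, 49975828, 24012736 and 40617071 UMIs, and 710 barcode sequences occurred in more than 1 library. After filtering, 34814 cells remained, of which 34336 fell into 19 classes named from marker genes and 478 (1.37%) into 6 unnamed clusters. A class is written as X-like because its name rests on markers alone. In 17 of the 19 classes the summed markers were highest in the class itself. The exceptions were monocyte-like cells, with 5062 CPM of their markers, and neutrophil-like cells, with 146846 CPM, against 5150 and 226473 CPM of the same 2 lists in immature neutrophil-like cells. Macrophage-like cells had 16967 CPM of their markers, against 16286 CPM in Kupffer cell-like cells. A level is given as CPM, the gene's UMIs per 1000000 UMIs of the class. Intervals are at 95% and hold only the error of counting UMIs. Libraries 1 and 3 and libraries 2 and 4 filled different clusters of several classes: T cell-like cluster 3 had 559, 6, 539 and 21 cells and T cell-like cluster 30 had 20, 488, 19 and 162 cells in libraries 1 to 4, and the vascular clusters 8 and 21 were divided in a similar way. Of the sinusoidal endothelial cell-like clusters, cluster 9 had 1699, 31, 255 and 38 cells and cluster 10 had 132, 284, 301 and 531 cells in libraries 1 to 4, so library 3 was in both. Levels that differ between libraries therefore go with different clusters, depths and tissue samples, which cannot be told apart here.

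Chemokines are small secreted proteins that bind to G protein-coupled receptors on leukocytes and guide their movement along a gradient. They are grouped by the spacing of their first cysteines (CC, CXC, CX3C and C), and several ligands usually share a receptor. In liver, Kupffer cells, endothelial cells, stellate cells and hepatocytes are all known to make chemokines, with which neutrophils, monocytes and lymphocytes are drawn out of the blood.

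The promoters of Cxcl1, Cxcl2, Cxcl3 and Cxcl10 are shown first because these ligands, led by 3 classes between them, carry known response motifs close to their start. Cxcl1, Cxcl2 and Cxcl3 are ligands of the receptor CXCR2 and lie together on chromosome 5, and Cxcl10, an interferon-induced ligand of CXCR3, lies on the same chromosome. The 250 bases before each start site are given 5′ to 3′ on the gene's own strand, from RefSeq on build GRCm38.p6, at chr5:90890995-90891244 (+) for Cxcl1, chr5:90903649-90903898 (+) for Cxcl2, chr5:90785851-90786100 (+) for Cxcl3 and chr5:92348890-92349139 (-) for Cxcl10. Capitals mark the core of the kappa B motif (GGNNTTTCC, either strand) and, as the first run in Cxcl10, that of the interferon-stimulated response element (TTCNNTTTC, either strand).
Cxcl1: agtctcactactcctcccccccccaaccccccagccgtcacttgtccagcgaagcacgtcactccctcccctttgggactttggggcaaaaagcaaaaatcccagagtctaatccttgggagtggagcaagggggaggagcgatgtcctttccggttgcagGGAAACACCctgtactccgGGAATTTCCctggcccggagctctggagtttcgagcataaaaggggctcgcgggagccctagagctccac
Cxcl2: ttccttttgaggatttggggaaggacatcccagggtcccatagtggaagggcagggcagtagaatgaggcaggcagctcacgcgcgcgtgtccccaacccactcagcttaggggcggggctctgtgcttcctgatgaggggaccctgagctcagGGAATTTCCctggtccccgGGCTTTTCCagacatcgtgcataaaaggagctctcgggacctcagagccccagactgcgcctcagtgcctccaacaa
Cxcl3: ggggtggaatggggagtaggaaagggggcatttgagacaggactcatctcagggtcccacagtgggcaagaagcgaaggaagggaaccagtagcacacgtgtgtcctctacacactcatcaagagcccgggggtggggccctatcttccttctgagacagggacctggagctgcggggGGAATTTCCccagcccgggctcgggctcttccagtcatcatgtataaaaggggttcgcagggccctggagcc
Cxcl10: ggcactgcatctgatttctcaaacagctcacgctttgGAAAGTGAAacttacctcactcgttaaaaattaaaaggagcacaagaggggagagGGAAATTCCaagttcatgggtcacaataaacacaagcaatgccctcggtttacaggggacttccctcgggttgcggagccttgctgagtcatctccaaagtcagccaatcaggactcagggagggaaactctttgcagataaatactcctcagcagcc
Counted from the start site, the kappa B core begins at -89 and -70 in Cxcl1, at -96 and -77 in Cxcl2, at -72 in Cxcl3 and at -158 in Cxcl10, and the response element of Cxcl10 begins at -213. Of 25 detected members 20 had a promoter in the table, and 5 (Ccl2, Ccl24, Ccl4, Ccl7 and Cxcl16) had none. In windows of 300 bases (250 before and 50 after the start) the kappa B core was found in 6 members, the other two being Cxcl9 and Ccl9, against 5.82% of 32851 promoters. The core of the response element was found in 5 (Cxcl9, Cxcl10, Cxcl14, Ccl3 and Ccl19), against 8.56%, and the AP-1 motif (TGANTCA, both strands) in 4 (Cxcl9, Cxcl10, Ccl9 and Ccl27a), against 7.81%. No match of one motif overlapped a match of another in the sequences shown. A match of letters is a description and not a binding site.

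Most detected ligands belonged to few classes. The leading class, that with the highest CPM, stood at least 2-fold above the next with an interval excluding 1 for 16 of 25 members, against a background of 13.6% of all 13461 genes with at least 100 UMIs. The median ratio of the leading class over the next was 2.92 over the members and 1.26 over all genes. One of 7 myeloid classes (Kupffer cell-, macrophage-, monocyte-, neutrophil-, immature neutrophil- and both conventional dendritic cell-like) led for 16 of 25 members, against 19.8% of all genes. Granulocyte-monocyte progenitor-like and plasmacytoid dendritic cell-like cells were not counted among them and led for 0 members, against 6.17% and 4.88% of genes. The hepatocyte-like class, which held 58.4% of the cells, led for 0 members, against 9.24% of all genes. For 15 members the leading class stayed above the next in every library that had at least 20 cells of both, with a count of 0 taken as it stands, and without library 1 the count led at least 2-fold was 10 in place of 16. Part of this fall came from the minimum of 100 UMIs, which Ccl17, Ccl22 and Ccl19 no longer reached. Library 1 held 90 of 112, 44 of 115 and 50 of 143 of their UMIs. For 9 members an unnamed cluster lay above the leading class. Some of the 15 rest on few libraries, such as Cxcl2 on 1 and Ccl17 and Ccl22 on 2. Shares over all genes are not given for the counts of 15, 10 and 9, so these describe the members only.

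**Figure D1:**
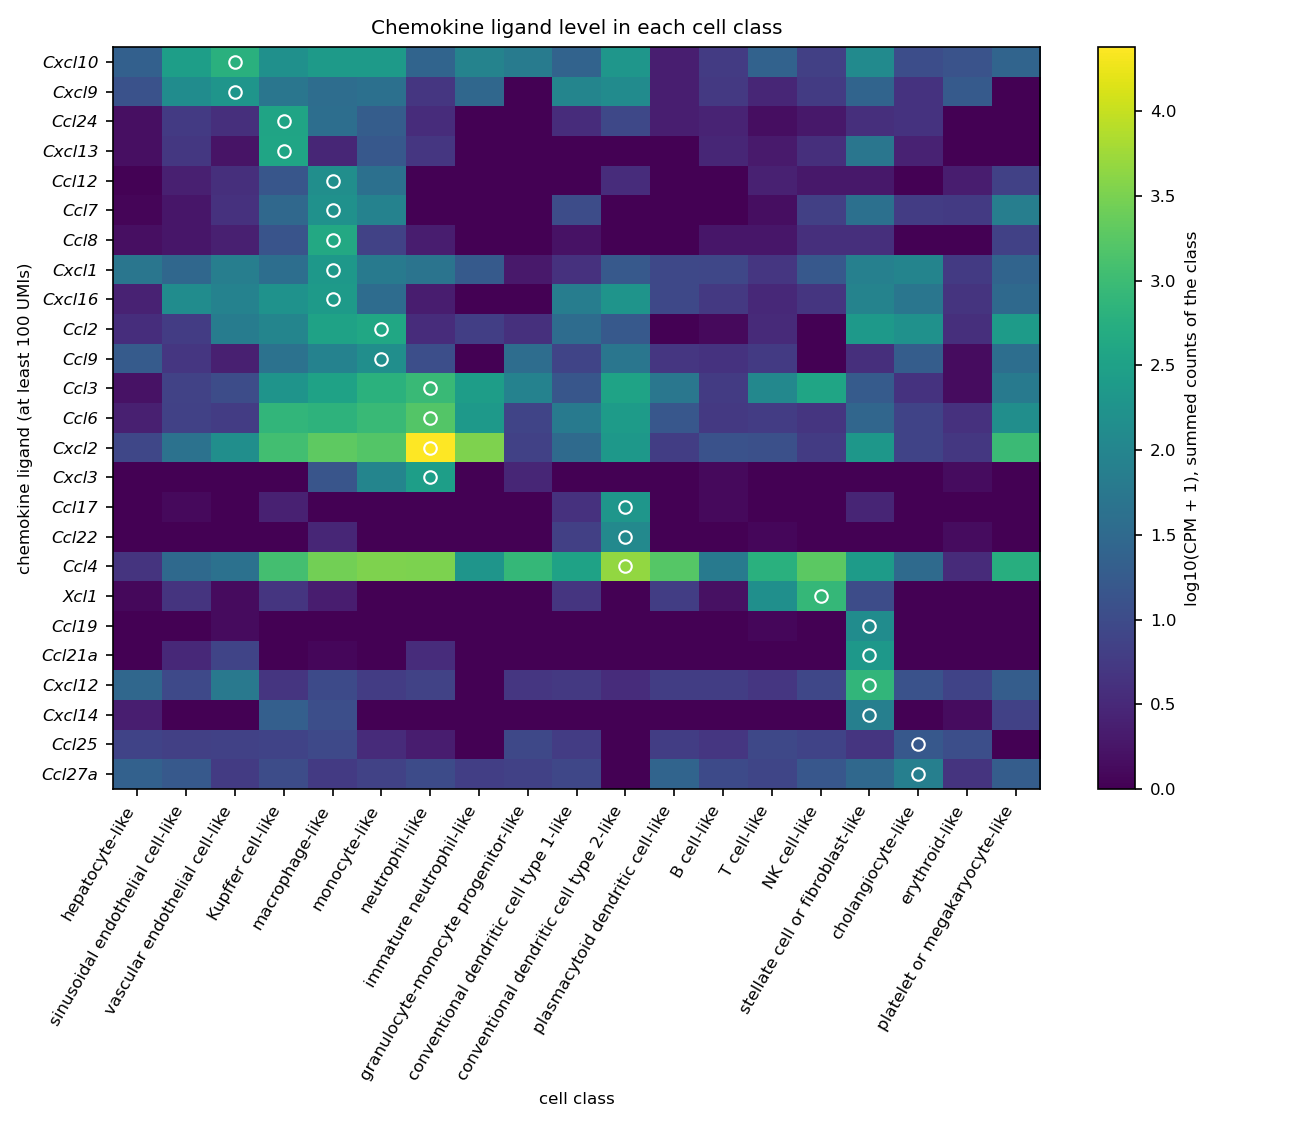
Level of each of the 25 ligands with at least 100 UMIs (rows) in 19 cell classes (columns), as log10(CPM + 1) of the summed counts, with a white ring on the leading class. Cxcl2 and Ccl4 had UMIs in all classes, while Ccl19, Ccl22 and Ccl17 were near 0 outside 1 or a few classes.

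Among the ligands of CXCR2, the receptor that draws neutrophils, Cxcl2 (ENSMUSG00000058427) was highest in the neutrophil-like cells themselves. It had 18746, 18281, 25272 and 31359 CPM in neutrophil-like cells of libraries 1 to 4, and 91.6% of these cells held at least 1 UMI. All 4 libraries were within 1.72-fold of each other. The class as a whole had 23987 CPM (23644 to 24333), against 3409 (3144 to 3690) in the next class, immature neutrophil-like cells, a ratio of 7.04 (6.49 to 7.64). Only library 4 had at least 20 cells of both. For shares at equal depth, cells were thinned to 1000 UMIs and shallower cells were left out, 248 neutrophil-like and 4127 hepatocyte-like ones. Of the remaining 349 neutrophil-like cells 94.0% (90.9 to 96.2) had a Cxcl2 UMI, and of the remaining 16209 hepatocyte-like cells 0.777%. Median depths over all cells of the 2 classes were 1143 and 2216 UMIs before thinning, and unthinned the hepatocyte-like share was 2.05%.

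Neutrophil-like cells held 52.5% of all Cxcl2 UMIs, so the gene was set beside S100a8 and S100a9, which encode abundant neutrophil proteins. There were 19.8 Cxcl2 UMIs per 100 UMIs of S100a8 and S100a9 in neutrophil-like cells, and the ratio was close to that in platelet or megakaryocyte-like cells (16.6), in conventional dendritic cell type 1-like cells (23.0) and in stellate cell or fibroblast-like cells (30.3). It was 7102 in macrophage-like, 1795 in Kupffer cell-like and 2025 in conventional dendritic cell type 2-like cells, where S100a8 and S100a9 were low. In monocyte-like cells it was 128, and in hepatocyte-like cells 85.1. Cxcl2 had 1928 CPM in macrophage-like and 1114 CPM in Kupffer cell-like cells, and 1638 CPM in monocyte-like cells, where S100a8 and S100a9 had 666 and 614 CPM. Its 984 CPM in platelet or megakaryocyte-like cells stood beside 1395 CPM of S100a8 and 4537 CPM of S100a9. The part of free RNA in the other classes was not tested.

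**Figure D2:**
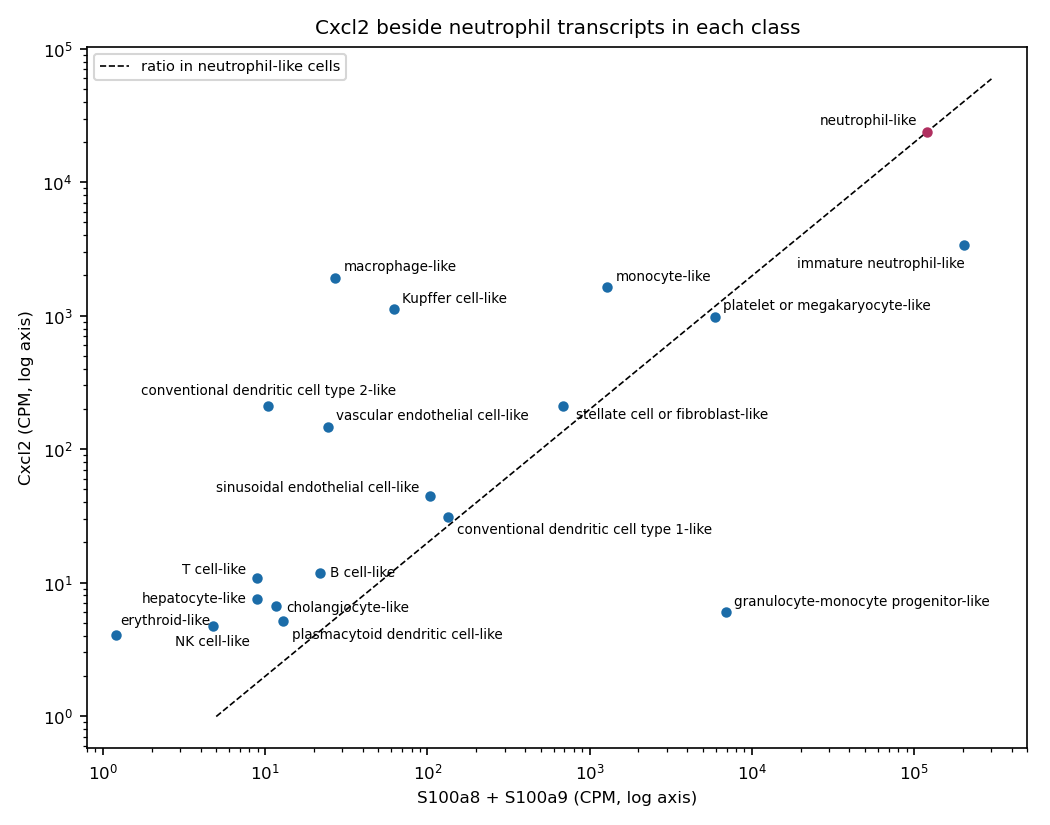
Cxcl2 (vertical, CPM) against the sum of S100a8 and S100a9 (horizontal, CPM), both on log axes, with 1 point per class and the ratio of neutrophil-like cells as a dashed line. Platelet or megakaryocyte-like, conventional dendritic cell type 1-like and stellate cell or fibroblast-like cells lie near the line, and macrophage-like and Kupffer cell-like cells lie far above it.

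Cxcl3 (ENSMUSG00000029379), a close relative of Cxcl2, was also led by neutrophil-like cells but was held by few of them. Its level was 45.5, 219.7, 278 and 724 CPM in neutrophil-like cells of libraries 1 to 4, so that library 4 was highest and library 1 lowest. Over the class it had 281 CPM (245 to 321), against 96.3 CPM (76.0 to 120) in monocyte-like cells, a ratio of 2.92 (2.25 to 3.84) that was 1.93 without library 4. It was found in 60 of 597 neutrophil-like cells, of which 59 also held Cxcl2.

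Cxcl1 (ENSMUSG00000029380), the third of these ligands, was spread much more widely. It had 9.31, 254, 200 and 120 CPM in macrophage-like cells of libraries 1 to 4, the first from a single UMI in 54 cells. The macrophage-like level of 218 CPM (206 to 231) was 2.34-fold (1.79 to 3.12) above that of cholangiocyte-like cells at 93.2 CPM (70.4 to 121). This order held in 1 of the 2 libraries compared, and the ratio of the leading class over the next was 1.97 without library 1, 1.75 without library 2 and 1.48 with libraries at equal weight. Hepatocyte-like cells, with 51.6 CPM over the class, held 70.1% of all Cxcl1 UMIs. Their level was 1.31, 58.0, 127 and 14.5 CPM in libraries 1 to 4, a 96.9-fold range, and 2131 of 20336 of them held at least 1 UMI. They were not alike: hepatocyte-like cluster 34, with 677 cells, had 227 CPM (211 to 244), level with the macrophage-like class. Cxcl5, a further ligand of CXCR2, had 7 UMIs in all. The receptor gene Cxcr2 was led by neutrophil-like cells too, with 309.7 CPM (272 to 351), which is 3.47-fold above the immature class.

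**Figure D3:**
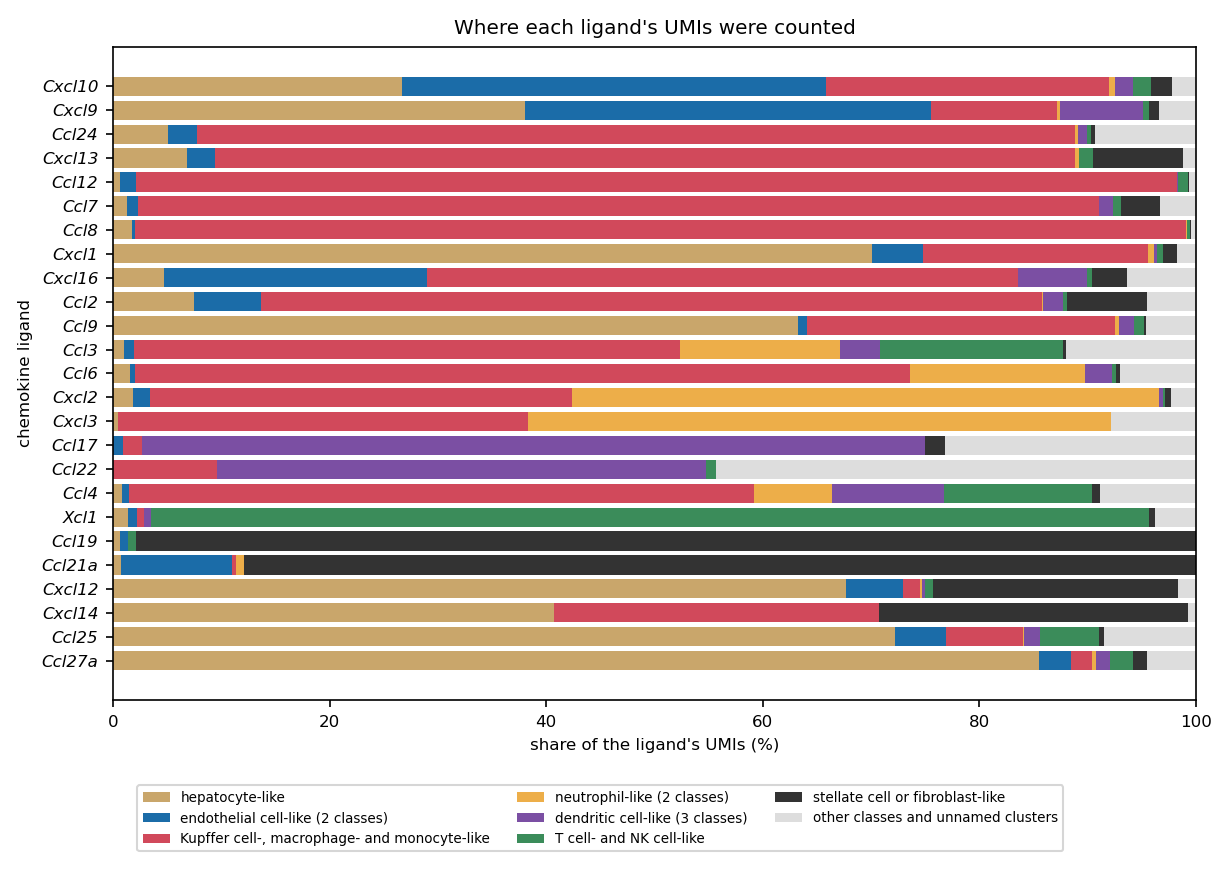
Share of each ligand's UMIs (horizontal, percent) that was counted in each family of classes, for the 25 ligands with at least 100 UMIs. Hepatocyte-like cells held 70.1% of Cxcl1, 67.7% of Cxcl12 and 85.5% of Ccl27a UMIs although they led for none of the ligands, and macrophage-like cells alone held 96.2% of Ccl8 UMIs.

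The interferon-induced ligands of CXCR3, the receptor of activated T and NK cells, were highest in both endothelial classes when classes are compared as a whole. Within single libraries this did not always hold for Cxcl10. Cxcl10 (ENSMUSG00000034855) had 52.6, 222, 495 and 1104 CPM in vascular endothelial cell-like cells of libraries 1 to 4, and 86.1, 357, 357 and 715 CPM in sinusoidal endothelial cell-like cells. Library 1 was lowest and library 4 highest in both classes, and the range was 21.0-fold and 8.31-fold. Cxcl9 (ENSMUSG00000029417) had 22.5, 103, 179 and 308 CPM in vascular and 96.8, 123, 156 and 216 CPM in sinusoidal endothelial cell-like cells, again lowest in library 1 and highest in library 4.

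Over all libraries Cxcl10 was at 601 CPM (572 to 630) in vascular and 286 CPM (269 to 304) in sinusoidal endothelial cell-like cells, a ratio of 2.10 (1.94 to 2.27). Vascular cells were above sinusoidal ones only in libraries 3 and 4, and the ratio was 1.31 without library 1 and 1.24 with libraries at equal weight. Without library 4 monocyte-like cells led for Cxcl10, at 293 CPM, and with doublets kept sinusoidal endothelial cell-like cells led, at 451 CPM. For Cxcl9 the ratio was 1.42 (1.25 to 1.61), with 188 CPM (172 to 205) in vascular and 133 CPM (121 to 145) in sinusoidal cells. The sinusoidal level could not be told from that of conventional dendritic cell type 2-like cells, at 128 CPM (94.6 to 169). Within the vascular class, Cxcl10 had 82.5 CPM in cluster 8, mostly of library 1, and 701 CPM in cluster 21, mostly of libraries 2 and 4. Both clusters also scored high for sinusoidal markers and were named from their leading genes, so the border of the 2 classes is soft. Of the 260 vascular cells with Cxcl9, 169 (65.0%) also held Cxcl10, and of the 367 with Cxcl10 these are 46.0%. Hepatocyte-like cells held 38.1% of Cxcl9 and 26.7% of Cxcl10 UMIs. Among them cluster 25, with 147 cells led by interferon-induced genes such as Ifit3, Ifit1 and Isg15 and 105 of them from library 2, had 231 CPM of Cxcl9 (199 to 267) and 325 CPM of Cxcl10 (286 to 367), the first above the vascular and the second above the sinusoidal class level. In macrophage-like cells Cxcl10 was highest in library 3 at 750.5 CPM, against 149, 203 and 220.4 CPM in libraries 1, 2 and 4, so its order of libraries there was not that of the endothelial classes. In libraries 1 and 3 the macrophage-like level lay above both endothelial classes, in library 1 from 16 UMIs. Cxcr3 stood at 98.2 CPM in T cell-like and 89.5 CPM in NK cell-like cells.

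CCR2 is the receptor that brings monocytes out of the bone marrow and into tissue. Over all libraries its ligands were highest in macrophage-like and monocyte-like cells. Ccl2 (ENSMUSG00000035385) had 70.9, 792, 207 and 71.0 CPM in monocyte-like cells of libraries 1 to 4, highest in library 2. Its level in monocyte-like cells was 399 CPM (356 to 445), against 337 CPM (322 to 353) in macrophage-like cells, a ratio of 1.18 (1.05 to 1.33), and 5 cells held 69.6% of its UMIs in the monocyte-like class. That order held in only 1 of 4 libraries, and without library 2 stellate cell or fibroblast-like cells led. These had 230 CPM of Ccl2 (202 to 261) over the class, from 206 CPM in library 1 to 273 CPM in library 4. In both of these libraries that was above the monocyte-like level. Ccl7 (ENSMUSG00000035373) had 9.31, 208, 100.1 and 37.0 CPM in macrophage-like cells of libraries 1 to 4, and 162 CPM (152 to 173) over the class, against 87.5 CPM (68.2 to 111) in monocyte-like cells. Ccl12 (ENSMUSG00000035352) had 65.1, 179, 103 and 35.3 CPM, and 142 CPM (133 to 152) in the macrophage-like class against 40.0 CPM (27.4 to 56.5) in monocyte-like cells, a ratio of 3.55 (2.50 to 5.23) that held its direction in 4 of 4 libraries. Library 2 was the highest for each of Ccl2, Ccl7 and Ccl12. The order of monocyte-like and macrophage-like cells changed with the clustering: with clustering at resolution 3 monocyte-like cells led for Ccl7 and Ccl12 as well, at 285 and 174 CPM.

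The macrophage-like cells that held these ligands overlapped in part. Of 174 macrophage-like cells with Ccl7, 118 (67.8%) also held Ccl2, which is 42.6% of the 277 cells with Ccl2. Of 196 with Ccl8, 80 (40.8%) also held Ccl12, which is 32.5% of the 246 with Ccl12. Cells with Ccl8 had a median of 4690 UMIs and those without it 1518, so deeper cells had more chances to show both. Ccr2 itself was highest in monocyte-like cells at 240.1 CPM (207 to 277), followed by conventional dendritic cell type 1-like cells at 140.1 CPM.

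Ccl8 and Ccl24, which act on CCR8 and CCR3 in the mouse, separated macrophage-like from Kupffer cell-like cells in opposite directions. Ccl8 (ENSMUSG00000009185) had 363, 604, 63.2 and 11.8 CPM in macrophage-like cells of libraries 1 to 4, and 15.1, 14.9, 4.46 and 0 CPM in Kupffer cell-like cells. In libraries 1 to 3 the macrophage-like value lay above the Kupffer cell-like value of the same library. In library 4 the direction cannot be read, since 0 UMIs in 26 Kupffer cell-like cells allow up to 46.0 CPM (3 UMIs). The macrophage-like range was 51.3-fold. The class had 441 CPM (424 to 458), against 12.6 CPM (7.31 to 20.1) in Kupffer cell-like cells, a ratio of 35.1 (21.9 to 60.3). Ccl8 lay in 196 of 1936 macrophage-like cells, and 2439 of its 2516 UMIs in the class came from library 2. Without that library the level was 45.9 CPM and the ratio 3.84.

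Ccl24 (ENSMUSG00000004814), an attractant of eosinophils, had 487, 299, 107 and 61.4 CPM in Kupffer cell-like cells of libraries 1 to 4, and 55.8, 40.2, 31.6 and 30.3 CPM in macrophage-like cells. The Kupffer cell-like values lay above all the macrophage-like values. The lowest of them, in library 4, rests on 4 UMIs in 26 cells, so its place is uncertain. Over the class it had 366 CPM (335 to 400.0), against 37.8 CPM (32.9 to 43.2), a ratio of 9.68 (8.24 to 11.4), and without library 1 the ratio was 5.17.

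Cxcl13 (ENSMUSG00000023078), which draws B cells through CXCR5 and helps build lymphoid follicles, was a Kupffer cell-like transcript in 2 libraries only. It had 566 CPM in library 1 and 223 CPM in library 3, against 0 UMIs in libraries 2 and 4, where the level of 3 UMIs is 11.2 and 46 CPM. Libraries 2 and 4 held 64 and 26 Kupffer cell-like cells, against 483 in library 1 and 145 in library 3. Over the class it had 370 CPM (338 to 404), against 51.8 CPM (39.1 to 67.5) in stellate cell or fibroblast-like cells, a ratio of 7.14 (5.39 to 9.61), and 112 of 718 Kupffer cell-like cells held it. Cxcr5 was highest in B cell-like cells at 50.1 CPM, 8.56-fold above T cell-like cells.

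Macrophage-like and Kupffer cell-like cells were compared over the 15 members with at least 100 UMIs in both together. A member counted as higher or lower if its ratio was at least 2 or at most 0.5, its interval excluded 1 and the direction was the same in all 4 libraries, a count of 0 being taken as it stands. By this rule 4 of 15 members were higher in macrophage-like cells, against 3.93% of 7045 genes: Ccl8 at a log2 ratio of 5.13, Ccl12 at 3.34, Ccl2 at 1.78 and Ccl4 at 1.26. The direction of Ccl8 in library 4 rests on a count of 0 and is unresolved, so its call rests on 3 libraries. Ccl12 had 35.3 CPM in macrophage-like cells of library 4, below 46.0 CPM, the level of 3 UMIs in Kupffer cell-like cells there. Its direction in that library is therefore unresolved as well. One, Ccl24, was lower at -3.28, against 3.89% of genes, and its direction in library 4 rests on 4 Kupffer cell-like UMIs. The median log2 ratio was 0.90 over the members and 0.05 over all genes tested. Of the members called, Ccl8 and Ccl12 had 17 and 19 Kupffer cell-like UMIs, so they passed the minimum of 100 UMIs through the macrophage-like class. Ccl2, Ccl4 and Ccl24 had at least 100 UMIs in each class. The counts of members called are therefore a description only. Without library 2, Ccl8, Ccl12 and Ccl2 no longer passed the rule, at 1.94, 2.83 and 0.84, and with clustering at resolution 3 neither did Ccl12 at 2.78, Ccl2 at 0.83 or Ccl4 at 0.51. Ccl8 also failed it at resolution 1, with doublets kept and with chemokine genes kept in the clustering, at 3.29, 3.55 and 3.60. Cxcl1 at 2.56, Ccl7 at 2.49 and Cxcl13 at -7.59 passed on size but not on direction in every library, Cxcl1 because of library 1 and Ccl7 because of libraries 1 and 3. Cxcl13 had no UMI in either class of library 4 and a single one, in macrophage-like cells, in library 2.

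The pooled ratio was not always near the ratios within libraries. For Ccl4 the macrophage-like cells had 9809, 2520, 5527 and 2272 CPM in libraries 1 to 4 and the Kupffer cell-like cells 1342, 680, 1384 and 399 CPM, so each library's own ratio was larger than the pooled 2.39. For Cxcl2 the macrophage-like levels were 2038, 1942, 3049 and 1512 CPM and the Kupffer cell-like levels 1572, 530, 491 and 46.0 CPM, all 4 in 1 direction with a pooled ratio of 1.73. For Ccl24 and Ccl8 pooling did the opposite: the 9.68-fold pooled difference of Ccl24 was larger than that of any library, and the 35.1-fold one of Ccl8 was larger than in libraries 1 and 3. Most macrophage-like cells (1181 of 1936) came from library 2 and most Kupffer cell-like cells (483 of 718) from library 1.

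**Figure D4:**
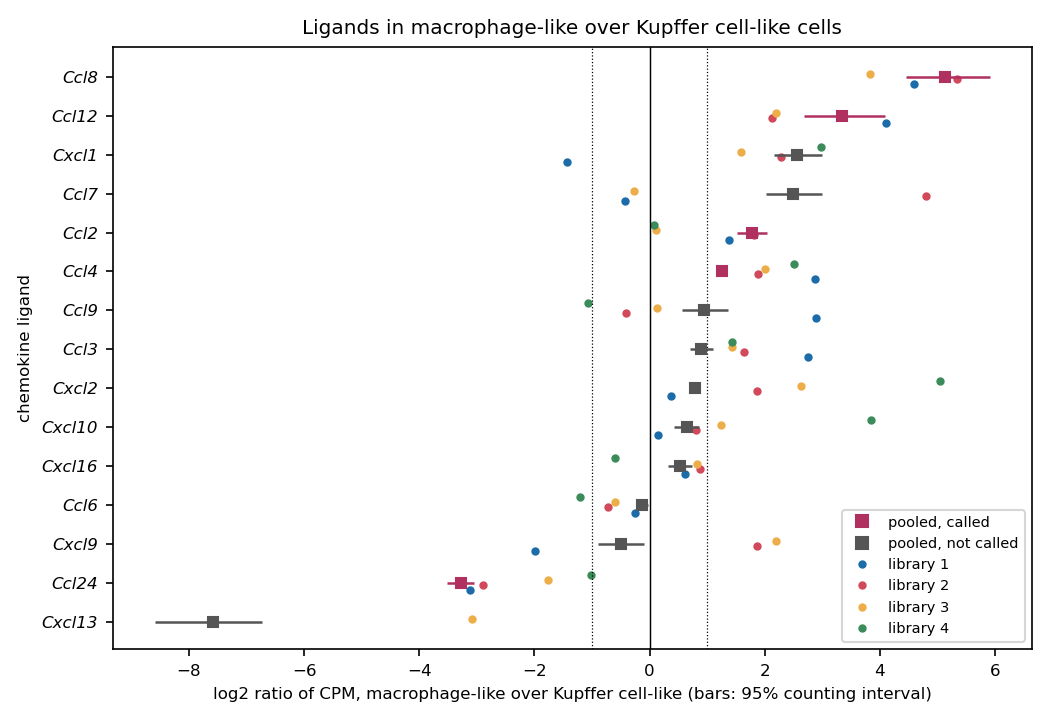
Log2 ratio of CPM in macrophage-like over Kupffer cell-like cells (horizontal) for 15 ligands (rows), with squares for all libraries together, bars for the 95% counting interval and dots for single libraries in which both classes had a UMI. Ccl8, Ccl12, Ccl2 and Ccl4 lie to the right in every library with a value and Ccl24 to the left, while Cxcl1 and Ccl7 have libraries on both sides.

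The macrophage-like clusters differed among themselves. Cluster 12, with 842 cells that led with complement genes such as C1qb, had 588 CPM of Ccl8, 443 CPM of Ccl2, 217 CPM of Ccl7 and 189 CPM of Ccl12. Cluster 14, with 325 cells led by Hmox1 and Lgals3, had 159.6 CPM of Ccl8, 40.8 CPM of Ccl12 and 86.9 CPM of Cxcl2, the last against 2361 CPM in cluster 12. Cluster 13, with 769 of the 1936 macrophage-like cells, had 18.9 CPM of Ccl8 (11.6 to 29.3) and 15.2 CPM of Ccl12 (8.66 to 24.6), close to the 12.6 and 14.0 CPM of Kupffer cell-like cells, so the class difference in these ligands came from the other clusters. Chemokine genes took no part in forming these clusters, but genes that move with them did.

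Cxcl16 (ENSMUSG00000018920), a membrane-bound ligand of CXCR6, varied least between libraries of the 14 ligands tested in macrophage-like cells. It had 269.9 CPM in library 1, 254 in library 2, 229 in library 3 and 193 in library 4 in macrophage-like cells, a 1.40-fold range. The class had 239.6 CPM (227 to 253), against 185 CPM (145 to 234) in conventional dendritic cell type 2-like cells, a ratio of 1.29 (1.02 to 1.67). Sinusoidal endothelial cell-like cells had 135 CPM, and Cxcr6 was highest in T cell-like cells at 130.1 CPM, with 74.3 CPM in NK cell-like cells.

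The inflammatory CC ligands Ccl3, Ccl4, Ccl6 and Ccl9, which attract monocytes and other leukocytes, were shared by many myeloid classes, and for none of the 4 described did the leading class stand 2-fold above the next. Ccl3 (ENSMUSG00000000982) had 652, 670, 751 and 2748 CPM in neutrophil-like cells of libraries 1 to 4, with library 4 apart. Over the class it had 947 CPM (880 to 1018), against 635 CPM (581 to 693) in monocyte-like cells, a ratio of 1.49 (1.33 to 1.67) that was 2.21 over the next class without library 2. Ccl6 (ENSMUSG00000018927) had 3054, 2344, 1059 and 1414 CPM in neutrophil-like cells of libraries 1 to 4, and 1595 CPM (1507 to 1686) over the class, against 935 CPM (869 to 1005) in monocyte-like cells in the same direction in 4 of 4 libraries. The ratio for Ccl6 was 1.71 (1.56 to 1.87), and it reached 2.11 without library 2 and 2.23 without library 3.

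Ccl4 (ENSMUSG00000018930) had 2897 CPM in library 1 and 4800 CPM in library 3 in conventional dendritic cell type 2-like cells, the only libraries with at least 20 of them. The class had 4684 CPM (4470 to 4906), against 3372 CPM (3246 to 3502) in monocyte-like cells, and 5 of its 98 cells held 41.2% of the UMIs. With libraries at equal weight macrophage-like cells led. Ccl9 (ENSMUSG00000019122) had 94.5, 145, 227 and 78.1 CPM in monocyte-like cells of libraries 1 to 4. Its level there was 146 CPM (121 to 175), against 85.8 CPM (78.4 to 93.8) in macrophage-like cells, a ratio of 1.70 (1.38 to 2.09) that was 3.05 without library 2. Hepatocyte-like cells held 63.3% of Ccl9 UMIs, with 40.1, 8.67, 42.3 and 6.58 CPM in libraries 1 to 4, higher in libraries 1 and 3 than in 2 and 4. The receptor gene Ccr1 was led by neutrophil-like cells with 365 CPM.

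Neutrophil-like cells were set against immature neutrophil-like cells, the class with genes of granule formation, over 5 members, and all 5 were higher, against 26.1% of 1090 genes higher and 6.42% lower. The direction could be read only in library 4, since the other libraries had 3, 12 and 9 immature cells. Only Cxcl2, with 611 UMIs there, reached 100 UMIs in the immature class alone. The other members passed the minimum of 100 UMIs over both classes through the neutrophil-like class. The count of 5 is therefore a description only. Cxcl3 had 281 CPM against 0 of its UMIs in immature cells, which is at least 16.8-fold higher if 3 UMIs are allowed over that class. The log2 ratio was 4.09 for Ccl4, 2.81 for Cxcl2, 2.80 for Ccl6 and 1.79 for Ccl3, and the median over all genes tested was 0.36.

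The dendritic ligands of CCR4, which marks some T cells, were rare and held by few cells. Ccl17 (ENSMUSG00000031780) had 389.6 CPM in library 1 and 134 CPM in library 3 in conventional dendritic cell type 2-like cells. Its level was 198 CPM (156 to 248), against 3.17 CPM (1.03 to 7.40) in conventional dendritic cell type 1-like cells, a ratio of 62.6 (25.7 to 198), but 10 cells held all of its 76 UMIs there and 5 of them 92.1%. Ccl22 (ENSMUSG00000031779) had 88.0 CPM in library 1 and 301 CPM in library 3, the opposite order to Ccl17. Its level was 112 CPM (81.3 to 151), against 5.70 CPM (2.61 to 10.8) in conventional dendritic cell type 1-like cells, a ratio of 19.7 (9.46 to 45.9), and 7 of the 12 cells with Ccl22 also held Ccl17. Neither had a UMI in any of 20336 hepatocyte-like cells, where a count of 0 allows up to 3. With doublets kept, monocyte-like cells led for Ccl17.

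Xcl1 (ENSMUSG00000026573), the C chemokine that draws cross-presenting dendritic cells through XCR1, belonged to lymphocytes. It had 980.3, 746, 1203 and 486 CPM in NK cell-like cells of libraries 1 to 4, and 164, 112, 199 and 165 CPM in T cell-like cells. The groups did not overlap. NK cell-like cells had 813 CPM (760 to 870), against 151 CPM (140 to 163) in T cell-like cells, a ratio of 5.39 (4.87 to 5.96), and the 2 classes held 50.8% and 41.4% of its UMIs. After thinning, 38.2% of NK cell-like cells (33.1 to 43.6) and 0.0247% of hepatocyte-like cells had an Xcl1 UMI, and unthinned the shares were 54.9% and 0.0541%. The receptor gene Xcr1 was led by conventional dendritic cell type 1-like cells, with 186 CPM (166 to 209), which is 71.9-fold above the next class.

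In the comparison of T cell-like with NK cell-like cells, 3 of 4 members were lower in T cell-like cells in all 4 libraries, against 3.22% of 6182 genes, and 0 were higher, against 2.31%. The log2 ratio was -2.43 (-2.58 to -2.28) for Xcl1, -1.82 (-2.01 to -1.62) for Ccl3 and -1.66 (-1.75 to -1.58) for Ccl4. Ccl4 had 117, 1167, 210 and 306 CPM in T cell-like cells of libraries 1 to 4, against 2498, 1987, 2106 and 978 CPM in NK cell-like cells. The 2 T cell-like clusters differed in Ccl4, with 956 CPM in cluster 30, which is mostly of library 2 and has the cytotoxic genes Nkg7 and Gzmb among its leading genes, and 161 CPM in cluster 3. Xcl1 was in the other order, with 122 CPM in cluster 30 and 187 CPM in cluster 3. Cxcl10, the last member compared, had a log2 ratio of 1.99 (0.82 to 3.47) from 6 UMIs in NK cell-like cells, and its direction was not the same in every library.

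Stellate cell or fibroblast-like cells, the collagen-producing cells of the liver, led for 4 members: Cxcl12, Cxcl14, Ccl19 and Ccl21a. Cxcl12 (ENSMUSG00000061353), which retains CXCR4-bearing cells in tissue and marrow, had 971, 748, 811 and 410 CPM in this class in libraries 1 to 4. It was found in 203 of 336 of these cells. The class had 774 CPM (722 to 829), against 58.8 CPM (50.1 to 68.5) in vascular endothelial cell-like cells, a ratio of 13.2 (11.1 to 15.7) in the same direction in 4 of 4 libraries. Hepatocyte-like cells had only 27.9 CPM, but with 13.9, 28.6, 41.0 and 22.9 CPM in libraries 1 to 4 they held 67.7% of all Cxcl12 UMIs. Cxcr4 had 346 CPM in neutrophil-like and 343 CPM in B cell-like cells.

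Cxcl12 was also the single member higher in vascular than in sinusoidal endothelial cell-like cells by the rule above, of 8 compared, against 3.33% of 7296 genes higher, and 0 were lower, against 1.74%. It had 11.3, 69.7, 22.9 and 65.9 CPM in vascular cells of libraries 1 to 4 and 6.45, 17.2, 10.9 and 4.30 CPM in sinusoidal cells, a log2 ratio of 2.86 (2.28 to 3.48). Ccl2 at 3.75, Cxcl2 at 1.74, Cxcl1 at 1.42 and Cxcl10 at 1.07 passed on size alone, and of these Cxcl2 was lower in the vascular cells of library 1, where Ccl2 and Cxcl1 had 0 UMIs. A count of 0 there allows up to 11.3 CPM, above the 3.77 CPM of Ccl2 and 1.61 CPM of Cxcl1 in sinusoidal cells of library 1, so that direction cannot be read. Cxcl12 had 162 vascular and 29 sinusoidal UMIs, so it passed the minimum of 100 UMIs over both classes through the vascular class. Ccl2, with 187 and 18 UMIs, and Cxcl1, with 204 and 99, did so too. Cxcl2 and Cxcl10 had more than 100 UMIs in each class. The count of members called is therefore a description only. Without library 1 this count was 3, and with clustering at resolution 1 and 3 it was 5 and 4. At resolution 1, however, Cxcl12 itself no longer passed, at 2.40.

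The ligands of CCR7, which leads dendritic cells and T cells into lymphoid tissue, came from different cells of this class. Ccl19 (ENSMUSG00000071005) had 140.0, 60.8, 219 and 37.7 CPM in stellate cell or fibroblast-like cells of libraries 1 to 4, where 68 of 336 cells held 140 of its 143 UMIs. Its level was 132 CPM (111 to 156), against 0.363 CPM from 1 UMI in vascular endothelial cell-like cells. Ccl21a (ENSMUSG00000094686) had 379.9 CPM in library 1, 6.08 in library 2, 293 in library 3 and 0 in library 4. Its class level of 219 CPM (191 to 249) was 31.7-fold (19.9 to 53.7) above that of vascular endothelial cell-like cells at 6.89 CPM (4.15 to 10.8). The vascular level came from 19 UMIs in 0.0992% of 1008 cells. The leading level rested on 10 of 336 cells, 5 of which held 84.9% of the UMIs.

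The markers of those 10 cells go against the name of the class. None of them held Ccl19 or Cxcl12. Of the 11 markers of the stellate cell or fibroblast class, 10 had 0 UMIs in these cells, and Dcn had 1 UMI in 1 cell, while Dcn was found in 292 of the other 326 cells (89.6%) and Ecm1 in 248 (76.1%). Of 5 markers listed for lymphatic endothelial cells, Mmrn1 was found in 10 of the 10 cells and Prox1 in 9, against 7 and 10 of the other 326, and Reln in 9, Flt4 in 7 and Pdpn in 5. Reln was also found in 44.2% of the other cells of the class. The Ccl21a level is therefore a value of these 10 cells, 5 of library 1, 1 of library 2 and 4 of library 3. Several rows of Ccl19, Ccl21 and Ccl27 are near-identical copies, among which reads can be split or lost, so the levels of all 3 are uncertain. Ccr7 was highest in B cell-like cells at 559 CPM and next in conventional dendritic cell type 2-like cells at 324 CPM.

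Cxcl14 (ENSMUSG00000021508), whose receptor is not settled, had 71.4, 48.6, 74.9 and 113 CPM in stellate cell or fibroblast-like cells of libraries 1 to 4. Over the class it had 77.3 CPM (61.5 to 95.9), against 19.9 CPM (13.1 to 29.0) in Kupffer cell-like cells, a ratio of 3.88 (2.48 to 6.23). Hepatocyte-like cells held 40.8% of its UMIs, nearly all from library 3, where they had 6.48 CPM against 0.436 in library 1 and less in the others.

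Cholangiocyte-like cells led for the epithelial ligands Ccl27a and Ccl25. Ccl27a (ENSMUSG00000073888), a ligand of CCR10, had 79.9 CPM in library 1 and 79.3 CPM in library 3 in cholangiocyte-like cells, the cells of the bile ducts. The class had 78.3 CPM (57.5 to 104), against 29.2 CPM (19.9 to 41.5) in stellate cell or fibroblast-like cells, a ratio of 2.68 (1.67 to 4.36), and 85.5% of its UMIs lay in hepatocyte-like cells, at 71.2, 11.9, 35.7 and 15.4 CPM in libraries 1 to 4. Within library 1 the cholangiocyte-like level of 79.9 CPM (53.9 to 114) and the hepatocyte-like level of 71.2 CPM (65.0 to 77.8) could not be told apart. Without library 1, which held 74 of 101 cholangiocyte-like cells, the class was too small to be ranked. Ccl25 (ENSMUSG00000023235), the gut and thymus ligand of CCR9, had 15.98 CPM in library 1 and 11.3 CPM in library 3 in cholangiocyte-like cells. The class had 14.99 CPM (6.85 to 28.4), against 10.1 CPM (6.54 to 14.9) in erythroid-like cells, so the leading class could not be told from the next. Of the 13 ligands tested in hepatocyte-like cells, Ccl25 varied least between libraries, at 5.67, 7.84, 5.47 and 6.29 CPM in libraries 1 to 4. Between hepatocyte-like clusters it ran from 0.728 CPM in cluster 32 to 46.8 CPM (39.6 to 54.9) in cluster 34. The latter was above the cholangiocyte-like class level.

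**Figure D5:**
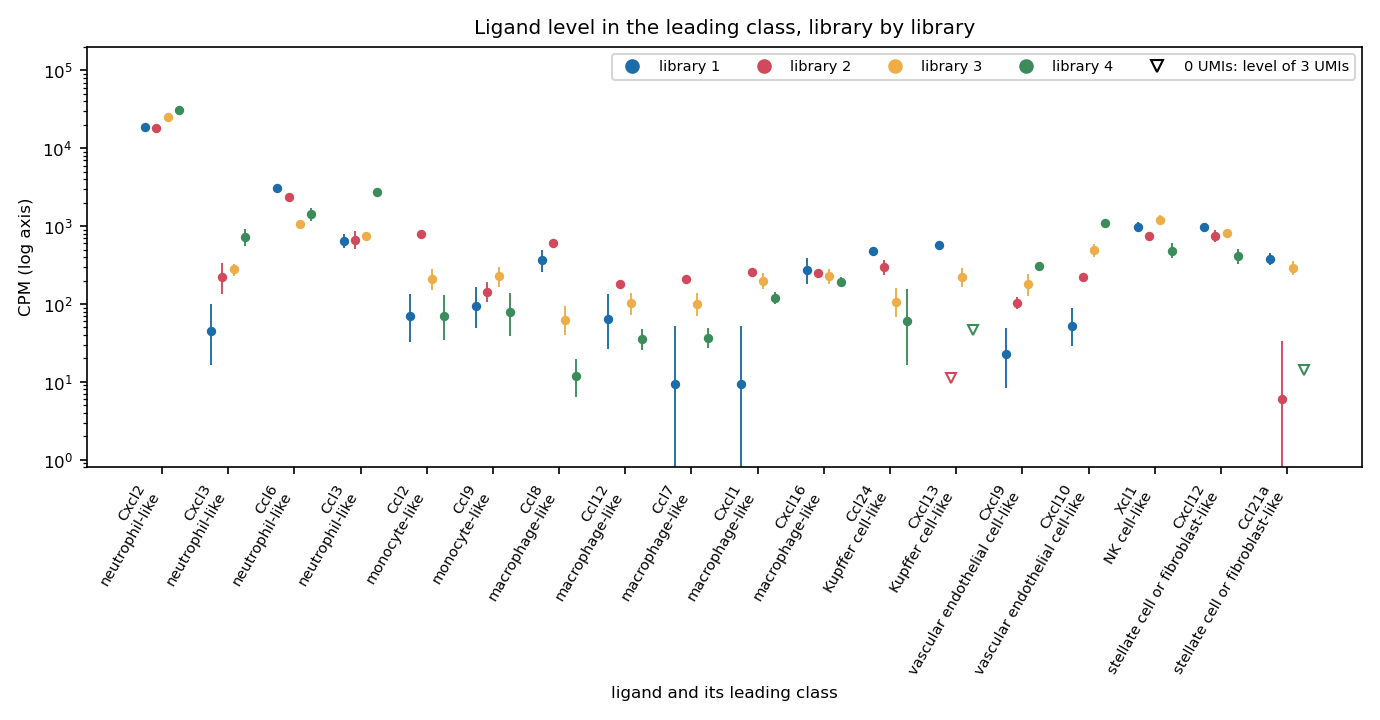
Level of 18 ligands in their leading class (vertical, CPM on a log axis), with 1 point per library that had at least 20 cells of the class and bars for the 95% counting interval. Cxcl2 in neutrophil-like and Cxcl16 in macrophage-like cells differed by less than 2-fold between libraries, and open triangles mark libraries with 0 UMIs of Cxcl13 and Ccl21a, drawn at the level of 3 UMIs.

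Many ligands differed in level between libraries within 1 class. A gene counted as spread if its highest library was at least 4-fold above its lowest with an interval excluding 1, with a lowest count under 3 UMIs raised to 3. Genes needed at least 100 UMIs over the class, which some ligands reached through their highest library, such as Ccl8 in macrophage-like cells through library 2. The counts of spread ligands are therefore a description only. In macrophage-like cells 8 of 14 ligands were spread, against 7.75% of genes, in Kupffer cell-like cells 5 of 9, against 8.6%, in vascular endothelial cell-like cells 8 of 8, against 15.6%, and in monocyte-like cells 5 of 7, against 12.3%. In hepatocyte-like cells it was 9 of 13, against 29.6%, in neutrophil-like cells 3 of 5, against 18.7%, in stellate cell or fibroblast-like cells 5 of 7, against 16.9%, and in sinusoidal endothelial cell-like cells 3 of 5, against 12.4%. Which library was highest was not the same for all: in macrophage-like cells it was library 2 for Cxcl1, Ccl7, Ccl12 and Ccl8, library 3 for Cxcl9 and Cxcl10 and library 1 for Ccl3 and Ccl4. In vascular endothelial cell-like cells library 1 was the lowest for 7 of the 8, Cxcl16 being the exception. Class make-up, depth and the tissue sample all change with the library, and their part was not tested.

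The members with under 100 UMIs were Ccl1 with 48 UMIs, Cx3cl1 with 40, Cxcl17 with 30, Ccl11 with 21, Ccl20 with 11, Cxcl5 with 7, a second row of Ccl21a (ENSMUSG00000095320) with 3 and Ccl28 with 2. Library 2 held 42 of the Ccl1 and 29 of the Cxcl17 UMIs. The 10 rows with 0 UMIs were Cxcl15, Ccl26, Ccl27b and 7 copies of Ccl19, Ccl21 and Ccl27. At this depth a count of 0 is no sign that a gene was off. Of the 19 chemokine receptor genes listed, 15 had at least 100 UMIs and 8 were led at least 2-fold by 1 class, and of 4 atypical receptors, which take up ligands without signalling to move the cell, 1 was.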

How the data were processed

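The deposited matrix holds UMI counts per gene and barcode, not normalized, which the authors made with Cell Ranger 6.0.1, per the file headers. The submitters' processing notes name the build mm9. Barcodes with at least 200 genes, 500 UMIs and under 20% mitochondrial UMIs were kept, and 1336 doublets were removed (Scrublet score over 0.25). Cells were clustered in scanpy 1.11.5 (2000 variable genes, 30 components, 15 neighbours, Leiden resolution 2), with chemokine ligand and receptor, mitochondrial, ribosomal and haemoglobin genes left out. Dendritic and granulocytic clusters were divided again at resolution 0.5. Counts were summed per class and library, with exact Poisson, binomial and conditional binomial intervals from scipy 1.17.1. All libraries count as 1 sample, so no p-value was computed.

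Members, marker lists and comparisons were chosen with earlier results of these data known. The naming rule, the second clustering round, the doublet score, the rule on spread between libraries, the pairs of ligands counted in the same cells and the motifs were set after the data were seen, and forms of the kappa B motif and the interferon-stimulated response element with 1 more base matched fewer promoters. Every member with at least 100 UMIs is named with its leading class, its next class and its libraries with at least 20 cells, and every member called in a comparison is named. Receptor genes were named only beside a ligand, at most 10 with values. The functions that make the calls were tested on simulated data. Alternatives changed the filters, doublets, resolution, clustering genes, depth, library weights and minimum UMIs. Cxcl11 is not analysed here, and some results are not reported here.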

Additional observations from a re-analysis of the deposited data

How the results depend on the processing

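All results were recomputed under 14 alternatives. The number of detected members stayed between 22 and 25 when each library was left out (25 with all). The number led at least 2-fold was 10 to 17 in the same runs, against 16 with all, and the lowest came without library 1, where Ccl17, Ccl22 and Ccl19 fell under 100 UMIs. The number of ligands called between macrophage-like and Kupffer cell-like cells was 4 to 7 with libraries left out, against 5, and 3 at resolution 3. Between vascular and sinusoidal endothelial cell-like cells it was 1, and it was 2 with genes of at least 30 UMIs, with cells holding at least 2 own markers and with chemokine genes kept, 3 with doublets kept, 5 at resolution 1, 4 at resolution 3, 0 with genes of at least 300 UMIs and 0 with cells thinned to 1000 UMIs, and 1 to 3 with libraries left out. It was 4 to 5 for neutrophil-like over immature neutrophil-like cells, against 5, and 3 to 3 for T cell-like over NK cell-like cells; without library 4 no library had 20 cells of both neutrophil classes, so that run gave no value. Of the ratios of single ligands, 409 stayed within their counting interval or kept their call, 97 moved beyond the interval, 15 lost the call and 2 reversed. Only a ratio called in the main run could count as reversed. An uncalled ratio that changed direction, such as that of Ccl7 at resolution 3, is not among these 2. The log2 ratio of Ccl12 in macrophage-like over monocyte-like cells was -0.67 at resolution 3 (1.83 otherwise), and that of Cxcl10 in vascular over sinusoidal cells was -1.95 with doublets kept (1.07 otherwise), and the cause of neither was tested. The Ccl8 ratio of macrophage-like over Kupffer cell-like cells lost its call without library 2 (log2 1.94), as did Ccl2 (0.84) and Ccl12 (2.83), and Cxcl3 in neutrophil-like over immature cells without library 3 (3.84). For 15 of 25 members the leading class was the same under every alternative. No share over all genes is given beside this count or beside the 10 to 17 led at least 2-fold. No paired analysis was possible because no source used here ties a library to a sample, so no replicate number belongs to any value. Depth limits what can be said of ligands under 100 UMIs, and class borders within the myeloid and endothelial families limit the order of their classes.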

Other observations

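The highest levels of several ligands lay in small clusters that carry no class name. Cluster 48, with 29 cells led by Ifitm1, Csf1, Hdc and Mcpt8, scored highest for 5 markers of mast cells or basophils but held under 50 cells. Its cells were 9, 3, 9 and 8 in libraries 1 to 4. Ccl4 reached 26666 CPM (25310 to 28076) there, against 4684 CPM in the leading named class, Ccl6 reached 7556 CPM, Ccl3 7537 CPM and Ccl9 590 CPM. No named class led by 2-fold for any of these 4 ligands, and their levels among 29 cells have no replicate check.

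Cluster 44, with 28 cells led by Fscn1, Tmem123, Il4i1 and Traf1, scored highest for mature dendritic cells, with 8 markers detected, and held 6, 11, 7 and 4 cells in libraries 1 to 4. It had 314 CPM of Ccl22, 115 CPM of Ccl17, 591 CPM of Cxcl16 and 568 CPM of Ccl24. Cluster 49, with 11 cells of a neutrophil-like marker profile, had 931 CPM of Cxcl3, against 281 CPM in the neutrophil-like class. Cluster 36, of which 163 of 193 cells came from library 2, had hepatocyte and lymphocyte genes (Afp, Gzma) side by side among its leading genes, with 82.8 CPM of Xcl1 and 402 CPM of Ccl4.

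The ligands left out by the rule or outside the name pattern were led as follows. Ccl5 had 13337 CPM in NK cell-like cells, against 6117 CPM in T cell-like cells. Pf4, known from platelets, had 3269 CPM in granulocyte-monocyte progenitor-like cells, against 1543 CPM in platelet or megakaryocyte-like cells. Ppbp, also a platelet ligand, had 1340 CPM in platelet or megakaryocyte-like cells, against 214 CPM in granulocyte-monocyte progenitor-like cells.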
